A study of Mus musculus with 2 samples.

Results

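The Ifit genes encode interferon-induced proteins with tetratricopeptide repeats, and the 6 mouse members measured here were Ifit1, Ifit1bl1, Ifit1bl2, Ifit2, Ifit3 and Ifit3b. They were taken by symbol from the transcript tables and linked by gene identifier to the gene tables, where they made up 6 of 55536 genes and 6 of 22028 protein-coding genes. The rule itself uses symbols and no measured value. RNA was measured in 2 libraries of C57BL/6J bone marrow-derived macrophages, primary phagocytes cultured out of marrow. Both libraries had the same history of 12 h with 100 ng/mL Lipid A, 12 h of washout, and 30 min with a second 100 ng/mL dose. The free-text label gives Lipid A, the part of bacterial lipopolysaccharide that Tlr4 recognises, whereas the treatment label gives lipoprotein A, and the labels do not settle which was used. The 2 libraries are biological replicates 2 and 1, with separate biosamples and 1 shared donor record, and nothing says whether the cells came from separate animals. Sex and age were not collected.

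Libraries of untreated cells or of cells given a single dose were not used here, so the values are levels after the second dose and not a response to it. With 1 library on each side, no difference between the replicates was tested and no p-value was computed. The tables held 30780681 gene counts for replicate 2 and 41938419 for replicate 1. All 8 macrophage markers were detected, among them Adgre1, the F4/80 antigen, at 2492 and 2803 TPM in replicates 2 and 1. Neutrophil markers reached 1 TPM in both libraries for 2 of 8 genes, plasmacytoid dendritic cell markers for 1 of 5, T and B cell markers for 0 of 5, and stromal markers for 5 of 5. TPM, the number of transcripts in 1000000, corrects for transcript length and so allows levels of different genes to be compared.

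As background, Ifit proteins are cytoplasmic and bind RNA through helical repeats. Ifit1 recognises RNA that carries a 5′ triphosphate or a cap without 2′-O methylation, marks that many viral RNAs have and most host messages lack, and it blocks their translation. Ifit1 and Ifit2 bind the initiation factor eIF3 and can lower translation, and in human cells IFIT3 joins and stabilises IFIT1. Transcription of the family is switched on by type I interferon, through the factor ISGF3 at interferon-stimulated response elements, and by Irf3 directly after Toll-like receptor or RNA sensor signalling.

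The members lie side by side on chromosome 19, within 99316 bases at chr19:34550694-34650009 of mm10. In this order they are Ifit2 at chr19:34550694-34576419, Ifit3 at chr19:34583531-34588731, Ifit1bl1 at chr19:34592891-34601956, Ifit3b at chr19:34607970-34613401, Ifit1bl2 at chr19:34617049-34640743 and Ifit1 at chr19:34640871-34650009. Ifit1bl1 and Ifit1bl2 are on the minus strand and the other 4 on the plus strand. Ifit1 and Ifit1bl2 start back to back, with 127 bases between their annotated starts. The stretches upstream of the starts are shown first, because copies of one element recur through the cluster. The element searched was the core of the interferon-stimulated response element, GAAANNGAAA, on both strands, so that it may read TTTCNNTTTC. Capitals mark its matches, and no stretch overlaps an annotated exon.
Ifit3 upstream, chr19:34583354-34583453, plus strand: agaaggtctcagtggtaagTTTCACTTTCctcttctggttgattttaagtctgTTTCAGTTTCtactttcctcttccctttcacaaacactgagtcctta
Ifit3b upstream, chr19:34607750-34607849, plus strand: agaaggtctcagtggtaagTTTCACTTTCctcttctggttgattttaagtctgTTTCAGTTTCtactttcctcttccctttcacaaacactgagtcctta
Ifit1 upstream, chr19:34640760-34640860, plus strand: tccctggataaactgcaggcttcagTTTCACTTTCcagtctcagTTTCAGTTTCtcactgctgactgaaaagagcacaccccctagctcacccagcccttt
Ifit1bl1-202 upstream, chr19:34602050-34602119, minus strand: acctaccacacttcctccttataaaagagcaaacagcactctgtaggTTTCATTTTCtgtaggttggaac
Ifit1bl1-201 upstream, chr19:34599428-34599497, minus strand: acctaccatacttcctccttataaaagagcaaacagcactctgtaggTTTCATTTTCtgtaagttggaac

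These sequences come from RefSeq windows on GRCm38.p6, each reaching from 250 bases before to 50 bases after a start site, and all 6 members matched at least 1 window. The Ifit3 and Ifit3b stretches were identical over all 100 bases. The parts of their windows that aligned best were 94.2% identical over 274 columns, with the unaligned ends left out. The 2 Ifit1bl1 stretches, upstream of the separate first exons of its 2 transcripts, differed at 2 of 70 bases.

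Matches to the core element were found in windows of 5 of the 6 members. Ifit3 had 2, beginning 156 and 122 bases before its start site, and Ifit3b had 2, beginning 188 and 154 bases before its own. Ifit1 had 2, at 104 and 85 bases, and the same 2 matches lie 70 and 51 bases before the outer Ifit1bl2 start on the other strand. The window of the inner Ifit1bl2 start had 0. Ifit1bl1 had 1 in each of its windows. Ifit2 had 0 in both of its windows, which says only that these letters are absent there. Among all 32851 windows, 3.44% held a match, and 3.99% of 27025 genes had one in some window. Distances here are from RefSeq starts. The annotated Ifit1 start, used for the gap of 127 bases, lies 18 bases before its RefSeq start. The annotated start of Ifit1bl1-201 lies 100 bases after its RefSeq start.

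The letters of a TATA box, TATAAA, were found in both Ifit1bl1 windows and in the inner Ifit1bl2 window, against 13.6% of all windows. Matches began 51 bases before the RefSeq start of Ifit1bl1-201 and 132 and 35 bases before that of Ifit1bl1-202. In the inner Ifit1bl2 window the match began 30 bases before the start. The half-fixed NF-kB site GGGNNNTTCC was found once, 247 bases before the outer Ifit2 start, against 5.56% of all windows. Both were searched on both strands, and neither overlapped a core element. No binding or chromatin data accompany these libraries, so a match describes sequence only.

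**Figure D1:**
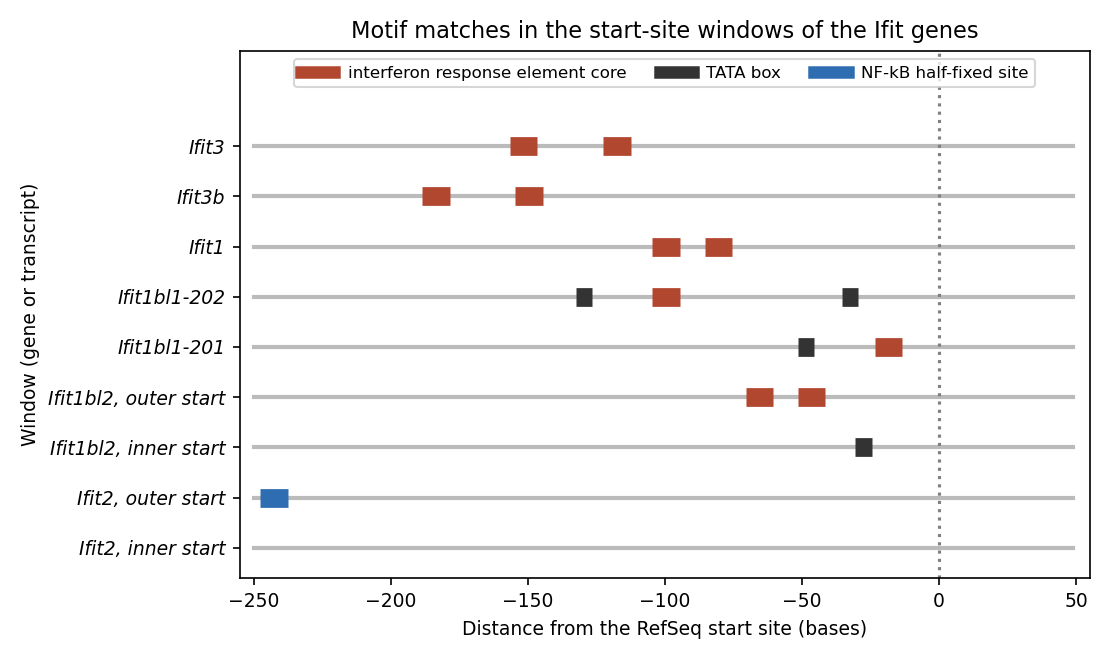
Matches to 3 motifs in the RefSeq start-site windows of the 6 Ifit genes, with distance from the start site in bases on the x axis (negative is upstream) and 1 line per window. Ifit3 and Ifit3b carry their pairs at the same spacing, 34 bases apart, and Ifit1 and the outer Ifit1bl2 start share 1 pair between them. The inner Ifit1bl2 window and the 2 Ifit2 windows have no core element.

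Of the 6 members, 5 were among the abundant messages of these macrophages and 1 was close to the detection limit. Ifit2, an eIF3-binding member that restricts several viruses in mice, stood highest at 1852 and 2195 TPM in replicates 2 and 1, from 139443 and 217761 counts. It ranked 46th and 39th among all protein-coding genes. Ifit3 followed at 1435 and 1983 TPM and ranked 62nd and 43rd. The ranges of Ifit2 and Ifit3 overlapped, so their order by level was not separated by the spread of the 2 libraries, although Ifit2 was higher within each.

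Ifit1, the cap and triphosphate sensor, was at 715 and 582 TPM, below Ifit3 in both libraries with no overlap. Ifit1bl1, one of the Ifit1-like genes, was at 508 and 198 TPM. Ifit3b, the near copy of Ifit3, was at 221 and 309 TPM. Ifit1 lay above Ifit1bl1 in both libraries, but Ifit1bl1 and Ifit3b changed places, with Ifit1bl1 2.30 times Ifit3b in replicate 2 and 0.642 times Ifit3b in replicate 1.

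Ifit1bl2, the other Ifit1-like gene, was at 1.05 and 0.78 TPM, from 69 and 68 counts. It fell under 1 TPM in replicate 1 and was not called detected. Although its outer start lies 127 bases from Ifit1 and shares the 2 core elements between the starts, Ifit1bl2 was 681-fold below Ifit1 in replicate 2 and 746-fold below it in replicate 1. The window of its inner RefSeq start had 0 core elements, and which start was used was not tested. Among protein-coding genes Ifit1bl2 ranked 10930th and 11181st.

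A level of at least 1 TPM in both libraries was reached by 5 of the 6 members, against 48.7% of all protein-coding genes. The same 5 reached at least 100 TPM in both, against 5.56%. As means over the 2 libraries the levels were 2023 ± 243 TPM for Ifit2, 1709 ± 387 for Ifit3, 648 ± 93.6 for Ifit1, 353 ± 219 for Ifit1bl1, 265 ± 62.2 for Ifit3b and 0.915 ± 0.191 for Ifit1bl2 (SD, n = 2). Together the family held 4732 and 5268 TPM in replicates 2 and 1, or 0.473% and 0.527% of each library's total. Ifit2 alone gave 39.1% and 41.7% of the family's TPM, Ifit3 30.3% and 37.6%, Ifit1 15.1% and 11.1%, Ifit1bl1 10.8% and 3.76%, and Ifit3b 4.67% and 5.86%. Ifit2 thus led in both libraries, and the shares that moved most between them were those of Ifit3, smaller in replicate 2, and Ifit1bl1, larger in replicate 2.

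**Figure D2:**
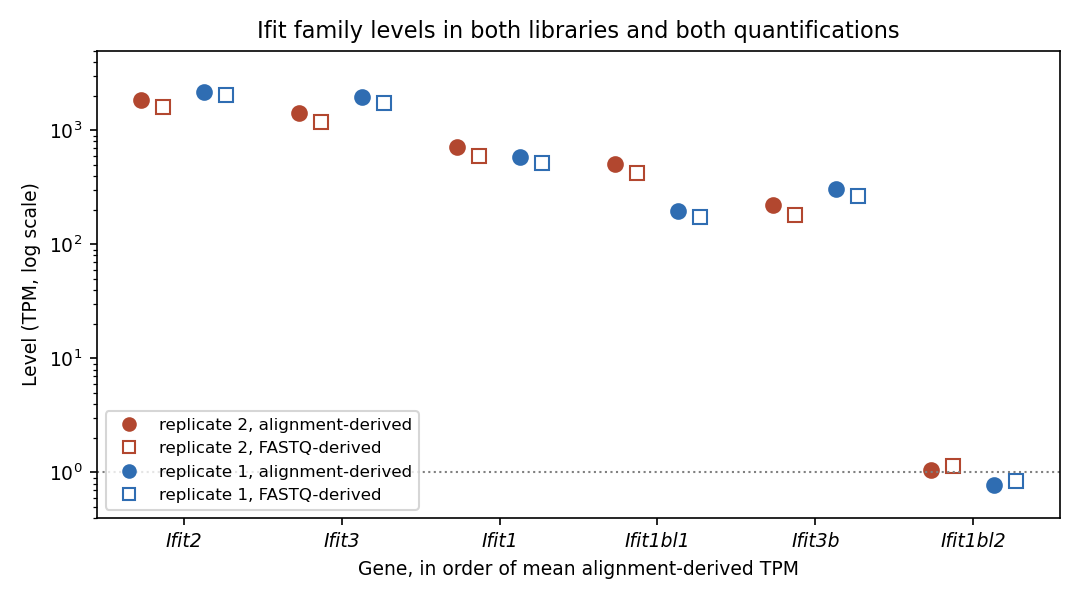
Level of each Ifit gene in TPM on a log axis, with replicate 2 left of replicate 1, filled circles for the alignment-derived table, open squares for the FASTQ-derived table, and a dotted line at 1 TPM. The other 5 genes lie between 174 and 2195 TPM in every library and table, and Ifit1bl2 lies between 0.78 and 1.15 TPM.

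Reads from near copies can be divided wrongly between genes, so the sequence that members share was measured on 31-base words of their M21 transcripts. Ifit2 shared 0% of its words with any other gene, Ifit1 9.62% with other members, Ifit1bl1 19.3% and Ifit1bl2 15.8%. For Ifit3 and Ifit3b the overlap was 61.8% of the Ifit3 words and 54.1% of the Ifit3b words, with no such overlap with other members. Genes outside the family held 1.15% of the Ifit1 words, 1.47% of the Ifit1bl2 words, 1.12% of the Ifit3b words and 0% of those of the other 3 members. The coding sequences of Ifit3 and Ifit3b, 1209 bases and 403 codons each, were 99.1% identical. They differed at 11 bases in 11 codons, and 5 of those codons encode another residue. The next closest pair was Ifit1bl1 and Ifit1bl2 at 87.5%, followed by Ifit1 with Ifit1bl2 at 73.5% and with Ifit1bl1 at 73.4%. All pairs between Ifit1-like, Ifit2 and Ifit3-like genes were between 49.7% and 55.4% identical.

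The Ifit3 and Ifit3b coding sequences are shown over a stretch that holds 3 of the differing bases. Only reads over such bases, or over the ends of the transcripts, can be assigned to 1 of the 2 genes. Capitals mark the bases that differ, and the stretch covers coding bases 191 to 280 from the start codon in both genes, from the M21 transcripts on mm10.
Ifit3 coding, chr19:34587246-34587335, plus strand: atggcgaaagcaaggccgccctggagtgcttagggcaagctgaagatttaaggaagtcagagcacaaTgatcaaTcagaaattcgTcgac
Ifit3b coding, chr19:34611616-34611705, plus strand: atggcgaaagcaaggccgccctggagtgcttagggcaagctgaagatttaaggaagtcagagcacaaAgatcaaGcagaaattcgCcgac

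The longest run without a difference between the 2 transcripts was 329 bases. Ifit3 had 655 words that no other member holds, of which 45 began before the coding sequence, 286 in it and 324 after it. Ifit3b had 910 such words, 286 of them beginning in the coding sequence and 624 after it.

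**Figure D3:**
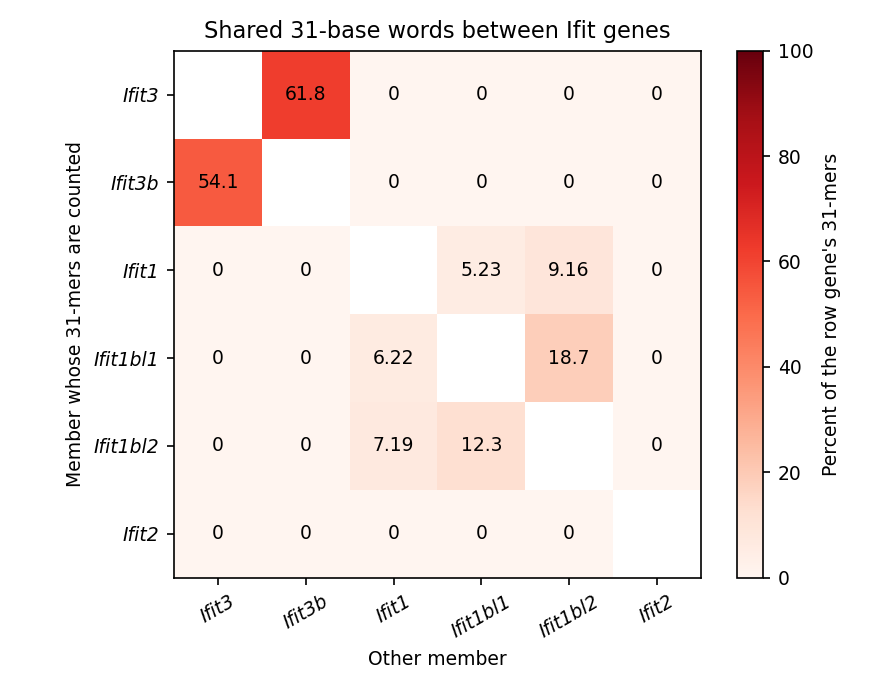
Percent of each row gene's 31-base words that also occur in the column gene, from 0 in pale to 100 in dark red, over all M21 transcripts of each gene. Ifit3 and Ifit3b share 61.8% and 54.1%, the 3 Ifit1-like genes share smaller parts, and Ifit2 shares none.

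Both quantifications divided the paralogues alike. The first table was derived from an alignment to the transcriptome and the second straight from the FASTQ files. In 10820 protein-coding genes with a mean of at least 1 TPM in each table, the alignment-derived TPM was higher by a median of 0.18 on the log2 scale, or 1.13-fold, and the differences below are relative to that median. They were 0.04 for Ifit1, 0.07 for Ifit1bl1, −0.03 for Ifit2, 0.04 for Ifit3 and 0.07 for Ifit3b. Ifit1bl2 stood at −0.30, with 1.05 and 0.78 TPM in the alignment-derived table and 1.15 and 0.848 TPM in the FASTQ-derived table for replicates 2 and 1. It was thus 519-fold and 610-fold below Ifit1 in the FASTQ-derived table, against 681-fold and 746-fold in the alignment-derived table. No member was 2-fold apart, as 0.767% of all genes compared were.

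The Ifit3 level was 6.50 and 6.42 times that of Ifit3b in the alignment-derived table and 6.60 and 6.52 times in the FASTQ-derived table, in replicates 2 and 1. The ratio of the 2 near copies thus varied little between libraries and tables. For each count, and not for the ratio, the alignment-derived table gives a posterior standard deviation. In replicates 2 and 1 it was 31.6 and 44.5 counts for both genes. That was 0.0708% and 0.0544% of the Ifit3 count and 0.391% and 0.298% of the Ifit3b count. For Ifit1 and Ifit1bl2 the posterior standard deviation was 0.15 and 0.22 counts, and for Ifit2 and Ifit1bl1 it was 0. Being 0 for Ifit2 at 139443 and 217761 counts, it covers neither counting error nor the spread between cultures. The sources used here do not say whether counting used the strand. The members on opposite strands do not overlap each other in the annotation.

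More than 1 annotated transcript exists for Ifit2 and Ifit1bl1. Ifit2-201, the full-length form with 470 codons, gave 99.9% and 99.8% of Ifit2 TPM in replicates 2 and 1, and the shorter Ifit2-202, of 700 bases, had 2.13 and 4.03 TPM. Ifit1bl1-202 had 434 and 172 TPM, or 85.3% and 86.7% of Ifit1bl1, and Ifit1bl1-201 had 74.7 and 26.3 TPM. The FASTQ-derived table gave Ifit1bl1-202 87.0% and 88.5% of the gene. These 2 transcripts encode the same number of codons, 470, and the 2 near-identical stretches shown earlier lie upstream of their starts. Only 31 of the 31-base words of Ifit1bl1-201, or 1.43%, and 38 of those of Ifit1bl1-202, or 1.75%, are absent from the other. Their deposited posterior standard deviations were 195 and 152 counts, on 3037 and 1418 counts for Ifit1bl1-201, so the smaller share is less firmly measured than the gene.

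Between the 2 libraries, Ifit1bl1 was the member that differed most. It had 20746 and 10705 counts in replicates 2 and 1, or 24278 and 9148 after TMM scaling to a common depth. The log2 ratio of replicate 2 over replicate 1 was 1.41, with a 95% exact binomial interval of 1.37 to 1.44, or 2.65-fold. Reads are not independent molecules, so these intervals cover counting error only and not the spread between cultures. In the FASTQ-derived table Ifit1bl1 was likewise higher in replicate 2, at 420 and 174 TPM. Both of its transcripts were, with Ifit1bl1-202 2.52-fold and Ifit1bl1-201 2.84-fold higher in TPM. Both tables describe the same 2 libraries, and few words tell the transcripts apart, so neither value is separate support. In bulk RNA, a smaller number of cells with a message and less of it per cell cannot be told apart.

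The other members stayed within 2-fold. Ifit1 was higher in replicate 2 by 0.35 (0.33 to 0.37), and Ifit1bl2, at 69 and 68 counts, had a ratio of 0.47 with an interval from −0.03 to 0.98 that includes 0. The remaining 3 members were lower in replicate 2, namely Ifit2 at −0.19 (−0.20 to −0.18), Ifit3 at −0.42 (−0.44 to −0.41) and Ifit3b at −0.44 (−0.48 to −0.40). The intervals of the 2 near copies overlapped, and their summed counts had a ratio of −0.42. In the sum over all 6 members, 249106 and 364285 counts, the ratio was −0.09. Members higher and lower in replicate 2 offset each other in this sum, and Ifit2 gave 139443 and 217761 of its counts. The family took 0.809% of gene counts in replicate 2 and 0.869% in replicate 1.

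Across 12471 genes with 20 or more counts in both libraries, the median log2 ratio was −0.02 and the central 95% ran from −0.63 to 0.90. Of these genes 1.94% were at least 2-fold higher in replicate 2 and 0.521% at least 2-fold lower. Among the members 1 of 6 was 2-fold higher and 0 were 2-fold lower. A ratio above that of Ifit1bl1 was seen in 0.698% of the genes, and a ratio below that of Ifit3b in 7.35%.

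The libraries, for which the labels name no batch, also differed in other ways. Neutrophil markers summed to 9.88 TPM in replicate 2 and 75.2 TPM in replicate 1. The highest were S100a9, at 5.28 and 40.05 TPM, S100a8, at 3.66 and 22.25 TPM, and Ngp, at 0.4 and 10.21 TPM. Ly6g was at 0 in both libraries, and Elane and Mpo were at 0 in replicate 2. Stromal markers summed to 642 and 566 TPM, with all 5 higher in replicate 2. Plasmacytoid dendritic cell markers summed to 4.35 and 4.19 TPM, and T and B cell markers to 0.04 and 0.27 TPM. Cd14, the co-receptor that hands lipopolysaccharide to Tlr4, was at 428 and 203 TPM with a log2 ratio of 1.07. No other of the 8 macrophage markers was 2-fold apart, and most went the other way. Lyz2 was also higher in replicate 2, at 0.50. The remaining 6 were lower there, down to −0.61 for Itgam, and the median of the list was −0.25. The part of these differences, and of depth, in the Ifit1bl1 ratio was not tested.

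**Figure D4:**
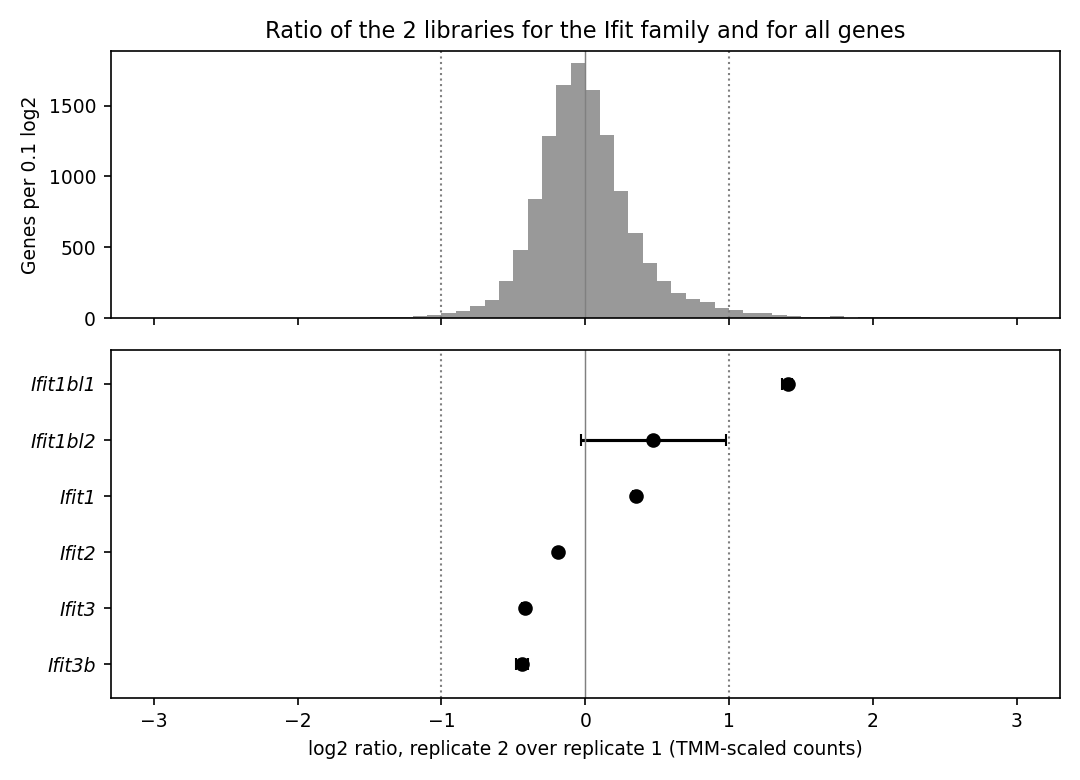
The upper panel counts genes by log2 ratio of replicate 2 over replicate 1 in bins of 0.1, over 12471 genes, and the lower panel gives each Ifit gene with its 95% exact binomial interval. Dotted lines mark 2-fold, which Ifit1bl1 alone among the 6 members passes at 1.41, and Ifit2, Ifit3 and Ifit3b lie below 0.

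The genes that lead to Ifit transcription were present from receptor to transcription factor. In the arm from Tlr4 to interferon, 8 of 8 genes were at 1 TPM or more, with medians of 32.2 and 39.4 TPM in replicates 2 and 1. Irf7, a factor that amplifies interferon transcription, was far above the rest at 2404 and 2018 TPM. The kinases Ikbke, at 157 and 159 TPM, and Tbk1, at 61.6 and 55.6 TPM, activate Irf3 and Irf7, and the adaptor Traf3 was lowest at 8.74 and 5.98 TPM. The interferon messages themselves were scarce. Ifnb1 was at 2.84 and 2.98 TPM, from 28 and 40 counts, and Ifna1, Ifna2, Ifna4 and Ifna5 were at 0 counts in each library. A 0 does not show absence. The floor set here was 3 counts, or 0.0975 and 0.0715 CPM (counts per 1000000 gene counts) in replicates 2 and 1. The Ifna genes are close copies of each other, so reads could also have been divided among them.

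Of the genes for the type I interferon receptor, its kinases and ISGF3, all 7 passed 1 TPM, and the list medians were 91.1 and 104 TPM. Stat2, an ISGF3 subunit that interferon signalling phosphorylates, was at 433 and 458 TPM. The receptor chain Ifnar2 was at 171 and 217 TPM, and the kinase Tyk2 was lowest at 64.1 and 64.2 TPM. Median levels over all protein-coding genes were 0.98 and 0.91 TPM, and over those detected 16.4 and 17.5 TPM.

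Other interferon-stimulated effectors spanned a range of levels that included those of the 5 detected Ifit genes. Of 20 such genes 20 were detected and 17 reached 100 TPM in both libraries, with medians of 390 and 421 TPM, against 612 and 446 TPM for the 6 Ifit genes. The highest were Ifitm3, which blocks virus entry, at 4110 and 4832 TPM, the ubiquitin-like modifier Isg15 at 1883 and 1690 TPM and the tetherin gene Bst2 at 1807 and 1691 TPM. The 2-5A synthetase Oas2 was lowest at 51.4 and 47.8 TPM. Ifit2 thus lay below Ifitm3 in both libraries, and below Isg15 in replicate 2 but above it in replicate 1. By ratio of replicate 2 over replicate 1, 10 of the 20 were higher and 10 lower, the median was 0.04, and 0 were 2-fold apart in either direction. The Ifit genes had 3 higher and 3 lower with a median of 0.08.

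The genes that set the RNA ends read by Ifit1, or encode the eIF3 subunits bound by Ifit proteins, had lower medians than the Ifit genes, although all 8 were above Ifit1bl2. Each of the 8 genes for RNA-end enzymes and eIF3 subunits passed 1 TPM, and the list medians were 22.01 and 19.3 TPM. Eif3c, the subunit that mouse Ifit1 and Ifit2 bind, was at 142 and 166 TPM, and Eif3e, bound by the human proteins, at 119 and 94.3 TPM. Cmtr1, which adds the first 2′-O methyl group of the cap and so hides host RNA from Ifit1, was at 85.3 and 101 TPM, and Cmtr2, which adds the next, was lowest at 3.25 and 2.64 TPM. None of the 8 was 2-fold apart between the libraries.

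**Figure D5:**
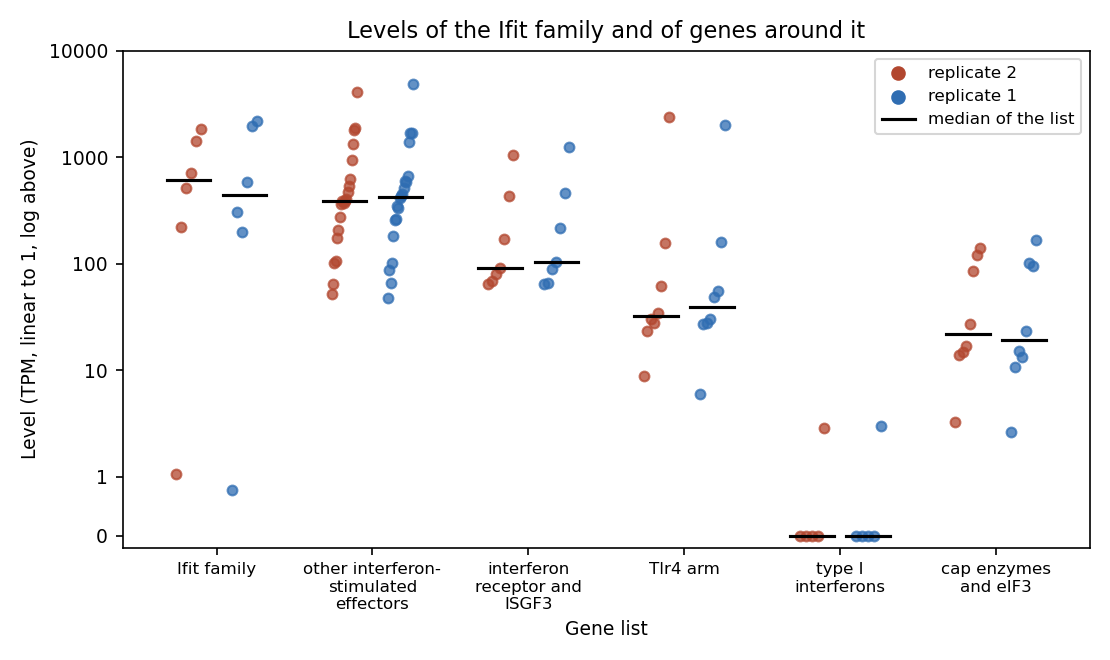
Level in TPM of every gene in 6 lists, on an axis that is linear up to 1 and logarithmic above, with replicate 2 left of replicate 1 and a bar at each list's median. The Ifit genes, but for Ifit1bl2, lie among the other interferon-stimulated effectors, and 4 of 5 type I interferon genes lie at 0.

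At the borders of the cluster the levels changed from gene to gene. Lipa, a lysosomal lipase 23220 bases before Ifit2, was at 450 and 558 TPM in replicates 2 and 1, with a log2 ratio of −0.26. Slc16a12, a transporter gene 18394 bases beyond Ifit1, had 1 and 0 counts. A processed pseudogene inside Ifit1bl2, AC016791.2, had 0 counts in both libraries. High levels were thus present on both sides of the nearly silent Ifit1bl2, in Ifit3b and Ifit1, and ended before Slc16a12.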

How the data were processed

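Polyadenylated RNA was measured in 2 libraries of 1 group. Per the labels, each used 1 µg of RNA and a size range of 250 to 400. The authors deposited expected counts, TPM, FPKM, isoform percent, posterior values and bounds of a TPM credibility interval (used here as a score, and the level is not stated) in tables derived from a transcriptome alignment, per the file headers. They deposited estimated counts and TPM in a table derived from FASTQ files. Build mm10 and annotation M21 are named in the deposited notes. No source used here names the tools.

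Expected counts were rounded and scaled with TMM factors (edgeR 4.0.16, R 4.3.3), with 0.5 added for ratios. A further 0.0667% and 0.0527% of counts in replicates 2 and 1 fell on entries that are not genes and were left out. Intervals are exact binomial at 95%. A gene was detected at 1 TPM in both libraries, and a ratio needed 20 counts in both. Gene sequences came from M21 transcripts and RefSeq windows on GRCm38.p6, in Python 3.11.15 with Biopython 1.88. The fold rule was tested on simulated data. Named were all members, the 3 highest and the lowest gene of each pathway list, the bordering genes, and any gene between the members, and 1 gene under this rule is not reported here. Marker genes were named after their values were seen. Members and lists were chosen with earlier results of these data known. Protein sequences were not used here. Alternatives were DESeq2 1.42.0 size factors, total counts, other thresholds, the FASTQ-derived table and leaving out a replicate.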

Additional observations from a re-analysis of the deposited data

How the results depend on the processing

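The family's share of all TPM, 0.5% as the mean of both libraries (SD 0.0379), was 0.473% to 0.527% with either replicate left out, 0.479% by posterior mean, and 0.437% in the FASTQ-derived table, a lower value than the spread of the replicates covers. Members detected numbered 5, also at 10 TPM and in the FASTQ-derived table, and 5 to 6 with a replicate left out. Ifit1bl1 remained the 1 member past 2-fold under DESeq2 factors, total counts, FASTQ-derived counts, a pseudocount of 5 and Ifit3 and Ifit3b summed, and no member's ratio changed sign. FASTQ-derived counts moved 5 of 6 ratios beyond their counting intervals, among them Ifit1bl1 to 1.36. Genes 2-fold higher and lower in replicate 2, 242 and 65, numbered 104 and 32 with at least 100 counts in both and 2993 and 2581 with no filter, where genes with few counts enter. The largest log2 difference between tables in either direction, 0.30 and at Ifit1bl2, was 0.26 to 0.35 with a replicate left out; without centring it was 0.25 and at Ifit1bl1, while Ifit1bl2 stood at −0.12. No paired analysis was possible because there is 1 group, and a ratio has no value when a replicate is left out.

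Depth limits Ifit1bl2, at 69 and 68 counts, and Ifnb1, at 28 and 40 counts. The other members had at least 8075 counts in each library, but there were only 2 libraries, and Ifit3 and Ifit3b share much of their sequence.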
